A study of Mus musculus with 576 samples.

Results

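Hdc encodes histidine decarboxylase, the enzyme that makes histamine from histidine. The 92 kept cells of the plate cultured with dexamethasone for 2 days are described here by their level of this gene, out of 563 kept cells on 6 plates. Levels are in CPM, a gene's count divided by the cell's total count on the usual scale. The 51 cells with Hdc at 100 CPM or more, called Hdc-high here, were compared with the 41 cells under 100 CPM, called Hdc-low, across all other genes. Kept wells had no fewer than 50000 counts and 1500 detected genes, and mitochondrial counts of 20% or less. The cells were chosen by their measured Hdc level, so this level describes them and is no finding.

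The cells came from livers of C57/Bl6J mouse embryos at day 14.5, depleted of cells bearing CD41, CD16/32, Sca-1 or Ter119, or the markers CD3e, CD11b, CD45R or Ly-6G. What remained was sorted by CD117, CD71 and CD24 to enrich burst forming unit-erythroid cells (BFU-E), early committed progenitors of red cells. All groups were then cultured with stem cell factor (SCF, 100 ng/mL), insulin-like growth factor 1 (IGF1, 40 ng/mL) and erythropoietin (EPO, 2 U/mL). The dexamethasone groups also received 100 nM of this synthetic glucocorticoid, and the control groups did not. Cells were taken after 24, 48 or 72 hours, called days 1, 2 and 3, and polyadenylated RNA of single cells was sequenced. Each day and treatment has 1 plate of 96 wells, so the Hdc-high and Hdc-low cells of day 2 are parts of 1 sample and differences between them carry no test. The labels tie no plate to an animal or to a culture of its own.

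Histamine is stored in granules of mast cells and basophils, where Hdc is known as a high-level gene, and it signals through 4 related receptors. Hdc is also known to be transcribed in immature cells of the blood-forming system. Glucocorticoids act through the glucocorticoid receptor, a transcription factor, and are known to prolong the proliferation of BFU-E in culture. The common beta chain encoded by Csf2rb carries signals of the cytokines IL-3, IL-5 and GM-CSF, which act on progenitors and on myeloid cells including mast cells.

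In the GENCODE annotation of mouse build GRCm38, Hdc (ENSMUSG00000027360.5) lies on the minus strand at chr2:126593667-126619299. The 250 bases upstream of the transcription start given by RefSeq are printed for Hdc and for 2 genes that were higher in Hdc-high cells, Cd200r3 and C3ar1, because these genes share the pattern described here. They were chosen after their values were seen, and other genes with the pattern, such as Gpr174, are not printed. Capitals mark the core bound by GATA factors on either strand, the letters GATA with A or T before them and A or G after them. The Hdc window lies at chr2:126618679-126618928 within an intron of a longer non-coding Hdc transcript, the Cd200r3 window at chr16:44943428-44943677 directly upstream of the gene, and the C3ar1 window at chr6:122856158-122856407 upstream of the gene's first exon apart from a few bases. Each is read 5′ to 3′ on the gene's strand, minus for Hdc and C3ar1 and plus for Cd200r3.
Hdc: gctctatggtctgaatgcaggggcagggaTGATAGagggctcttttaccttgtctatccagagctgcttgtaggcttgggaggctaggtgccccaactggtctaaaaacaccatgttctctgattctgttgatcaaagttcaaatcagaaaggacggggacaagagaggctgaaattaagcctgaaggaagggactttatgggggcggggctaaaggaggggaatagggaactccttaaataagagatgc
Cd200r3: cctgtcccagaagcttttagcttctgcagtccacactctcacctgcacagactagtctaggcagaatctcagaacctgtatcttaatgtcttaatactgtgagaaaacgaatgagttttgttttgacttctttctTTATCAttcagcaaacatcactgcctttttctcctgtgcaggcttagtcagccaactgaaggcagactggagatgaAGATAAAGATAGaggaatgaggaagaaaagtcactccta
C3ar1: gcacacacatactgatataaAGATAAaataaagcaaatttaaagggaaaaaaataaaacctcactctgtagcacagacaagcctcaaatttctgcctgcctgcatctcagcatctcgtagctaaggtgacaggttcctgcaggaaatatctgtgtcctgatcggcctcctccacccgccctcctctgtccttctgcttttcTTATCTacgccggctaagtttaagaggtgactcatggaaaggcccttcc
The Hdc window held 1 match, the Cd200r3 window 3 (of which 2 adjoin) and the C3ar1 window 2. Of all 32851 windows of this length in the RefSeq table (build GRCm38.p6), 26.5% held a match. Among the genes with the largest differences described further on, 6 of 15 windows of the 15 highest and 2 of 10 windows of the 15 lowest held one. Several genes had more than 1 window and some had none. The letters AGAACA, only a part of the full glucocorticoid receptor motif, were searched on either strand. They were in the Hdc window, in 2 of 15 and 1 of 10 windows of these gene sets, and in 16.1% of all windows. The motif of STAT factors, TTC and GAA with any 3 bases between, was in 0 windows of Hdc and of these gene sets. It was in 7.02% of all windows. These matches describe letters and not bound sites.

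Cells at or above 100 CPM of Hdc made up 55.4% of the dexamethasone day 2 plate (51 of 92 cells, exact 95% binomial interval 44.7 to 65.8%). On the other plates they numbered 4 of 94 on control day 1, 0 of 96 on control day 2, 3 of 93 on control day 3, 3 of 94 on dexamethasone day 1 and 10 of 94 on dexamethasone day 3. The share of 0 on control day 2 allows up to 3.13% by a limit of 3 cells. Summed over all cells of a plate, Hdc stood at 24.0, 2.80 and 23.1 CPM on the control plates of days 1, 2 and 3. On the dexamethasone plates it stood at 15.9, 713 and 40.9 CPM. The 2 highest cells of dexamethasone day 2 held 70.2% of its Hdc counts, and without them the plate stood at 215.5 CPM. On control day 3 1 cell held 83.9% of the counts, and without it that plate stood at 3.76 CPM. Without its highest cell control day 1 stood at 13.6 CPM. The day 2 dexamethasone plate was the highest of the 6 with and without these cells, and it has no second plate against which to set its spread.

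**Figure D1:**
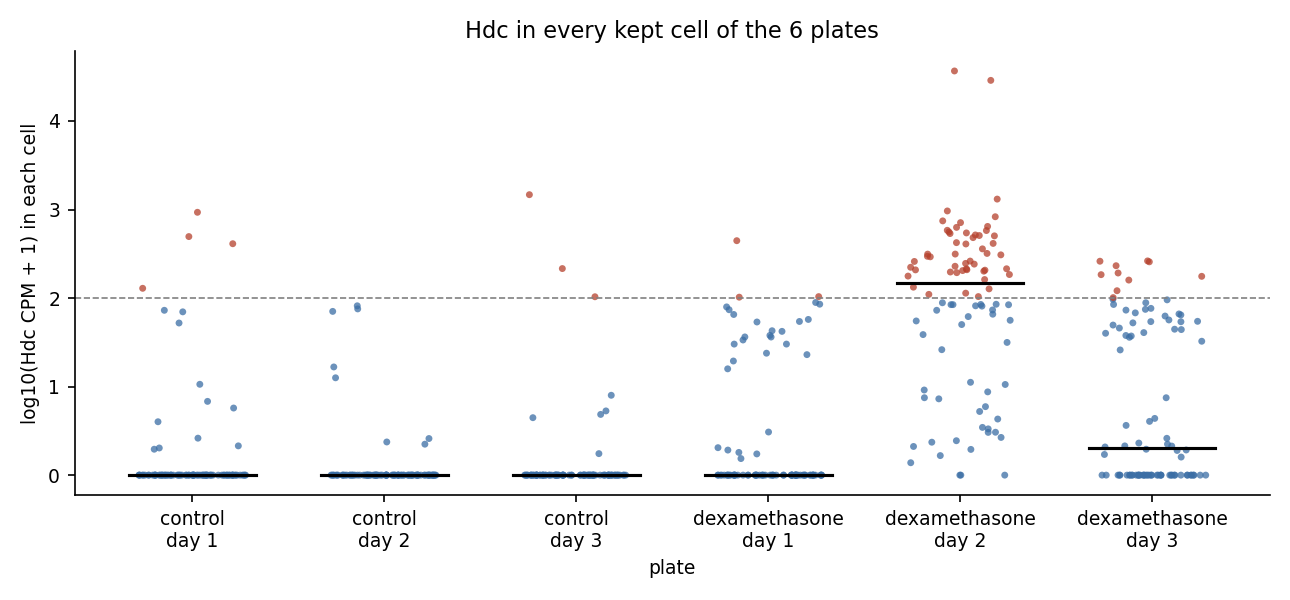
Hdc in each of the 563 kept cells, as log10 of CPM plus 1, by plate; the dashed line marks 100 CPM, the black bars are medians, red points are Hdc-high and blue points Hdc-low. The median of the dexamethasone day 2 plate is 146 CPM, and 2 of its cells lie far above all others.

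Within the day 2 dexamethasone plate the median cell had 146 CPM of Hdc. The plate held 3 cells with no Hdc count, 19 above 0 and under 10 CPM, 5 from 10 to under 50, 14 from 50 to under 100, 10 from 100 to under 200, 24 from 200 to under 500, 15 from 500 to under 1500, and 2 at 36738 and 28763 CPM. The cells nearest to the threshold had 87.5 CPM below it and 103 CPM above it. The next highest cell after the top 2 had 1311 CPM. These 2 cells therefore stand apart, and the count of genes, several gene lists and several genes are also given without them. The wells that share 1 of their 2 sequencing indices with one of these 2 cells numbered 33, with a median of 196 CPM and 21 at 100 CPM or more. The 57 wells that share none had a median of 84.1 CPM and 28 at 100 CPM or more. The part of index exchange in the Hdc levels was not tested.

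Depth was similar on both sides. Hdc-high cells had a median of 1077212 counts and 8898 genes with a count, and Hdc-low cells 1052090 counts and 8766 genes. Mitochondrial counts made up a median of 4.61% and 4.55%. Erythroid genes were present on both sides. Gata1, the central erythroid transcription factor, had a median of 272 CPM in Hdc-high and 247 CPM in Hdc-low cells, Epor, the erythropoietin receptor, 148 and 145 CPM, and Tfrc, the transferrin receptor CD71, 1433 and 1680 CPM. Klf1, a regulator of globin and red cell genes, had medians of 187 and 221 CPM. The ranges of these 4 genes overlapped between the sides. Their highest values in Hdc-high and Hdc-low cells were 474 and 777 CPM for Gata1 and 2384 and 4473 CPM for Tfrc. For Klf1 they were 421 and 521 CPM, and for Epor 585 and 527 CPM.

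A few cells on each side carried markers of other lineages, although the sort before culture was meant to deplete several of them. The 2 cells of highest Hdc had 11946 and 2639 CPM of Cpa3, a mast cell protease, with Gata1 from 122 to 152 CPM and Klf1 from 0 to 30.97 CPM. No other cell of the plate reached 100 CPM of Cpa3. All 22 mast cell and basophil markers together summed to 21081 and 11246 CPM in these 2 cells, against at most 1710 CPM in any other cell. Srgn, the granule proteoglycan serglycin, contributed 4018 and 2526 CPM to these sums, Gzmb, the protease granzyme B, 1090 and 1591 CPM, and Cma1, a mast cell chymase, 0 and 1499.9 CPM. Of the 22 markers 5 had no count in any of the 92 cells. They were Fcer1a, Mcpt4, Mrgprb2, Prss34 and Tpsab1, which are known from mature mast cells and basophils. The 2 cells are given no cell type name. At least 3 neutrophil and monocyte markers at 20 CPM or more were found in 2 Hdc-high and 2 Hdc-low cells, with Gata1 at 1.26 to 4.18 CPM and Mpo, a granule enzyme of myeloid cells, at 3985 to 26997 CPM. At least 3 of 5 megakaryocyte markers (Pf4, Vwf, Gp1bb, Gp9 and Treml1) at 20 CPM or more were found in 0 Hdc-high and 5 Hdc-low cells, and 1 further Hdc-low cell had 2 of them. The Hdc of the 5 cells ran from 0 to 9.57 CPM. Leaving out these 11 cells, but not the further one, leaves 47 Hdc-high and 34 Hdc-low cells, and this comparison is called the one without marked cells below. Macrophage, lymphoid and hepatocyte lists are given with the gene lists.

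**Figure D2:**
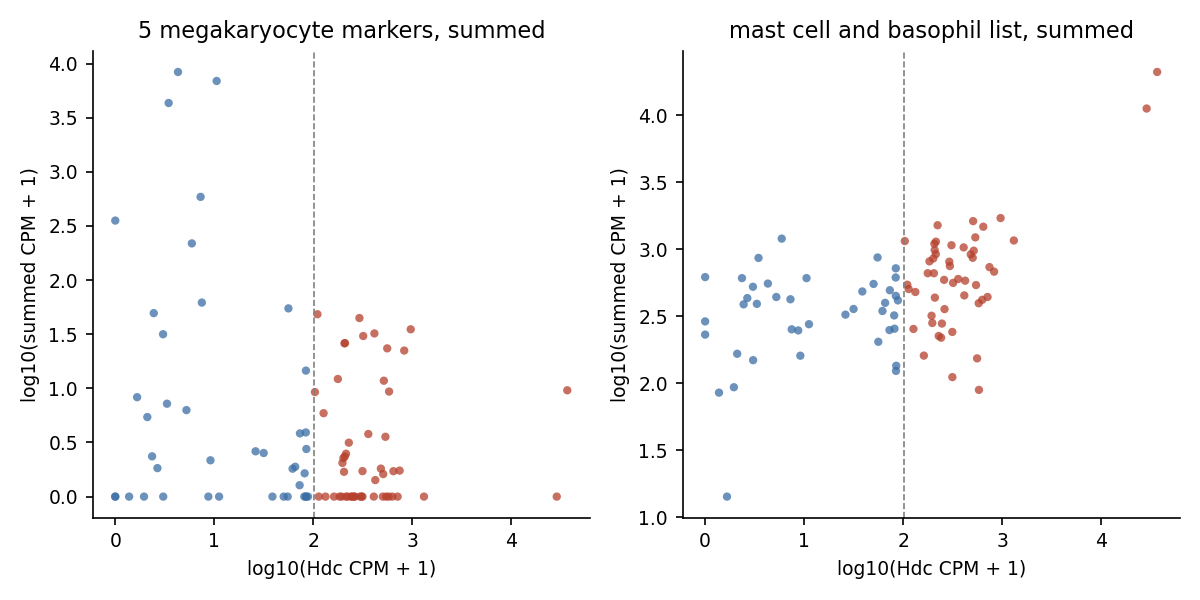
Summed CPM of 5 megakaryocyte markers (left) and of the mast cell and basophil list without Hdc (right) against Hdc in each of the 92 cells, both as log10 of CPM plus 1; red points are Hdc-high, blue points Hdc-low, and the dashed line marks 100 CPM. The megakaryocyte-marked cells all lie left of the line, and the 2 cells of highest Hdc stand alone at the top right.

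Counts were summed over the cells of a side. A gene was described where at least 20% of the 92 cells had a count and its level over the plate was at least 10 CPM, which left 8254 genes besides Hdc. The log2 ratio is that of the sums' CPM with 1 CPM added to each. Of these genes, 180 (2.18%) were at least 2-fold higher in Hdc-high cells and 146 (1.77%) at least 2-fold lower. Without the 2 top cells the counts were 154 (1.87%) and 162 (1.96%). Without marked cells they were 204 (2.47%) and 131 (1.59%). The division of cells used the same libraries, so these counts are descriptions, and each Poisson interval below covers counting error only, not differences between cells.

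**Figure D3:**
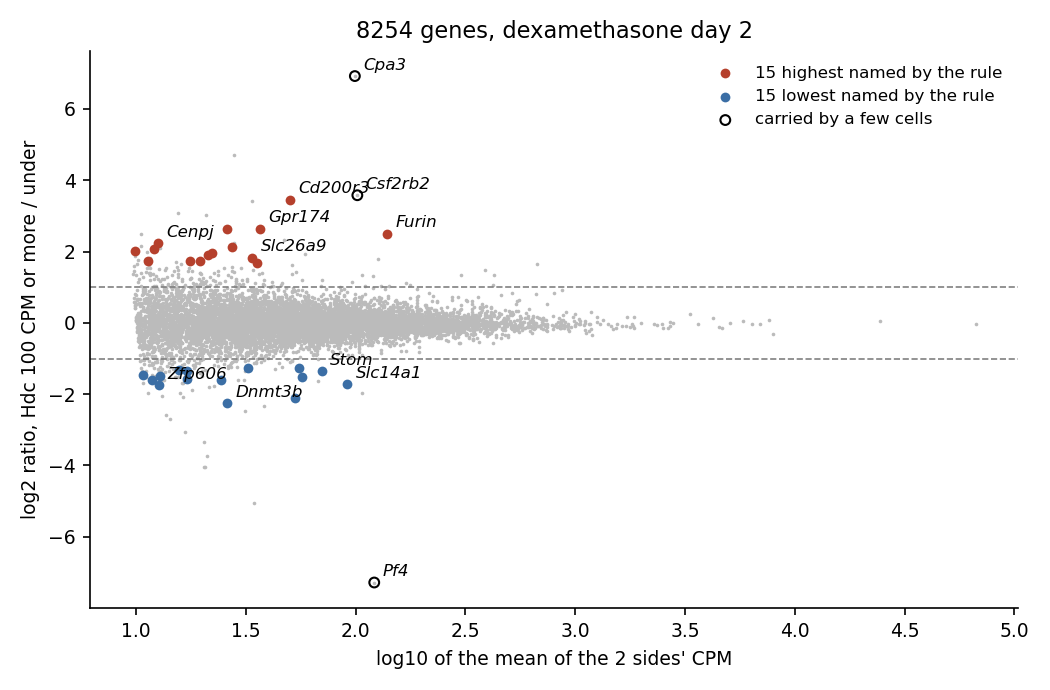
Log2 ratio of Hdc-high over Hdc-low against the log10 mean level of each of 8254 genes; red and blue points are the 15 highest and 15 lowest genes named by the rule, open circles are genes named beside them whose ratio is set in part or whole by few cells, and dashed lines mark 2-fold. The scatter narrows towards high levels, and Cpa3 and Pf4 are the farthest points.

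The genes higher in Hdc-high cells included receptors and a ligand of the cell surface, a protease and a transcription factor. By a rule that left out genes with over 20% of the higher side's counts in 1 cell, and asked that the medians differ the same way, the 15 highest were Cd200r3, Gpr174, C3ar1, Furin, Cenpj, Plin3, Arap3, Tmtc2, Tiam1, Tnfsf4, Slc26a9, Fgd3, Fyco1, Nab2 and Ikzf2, with log2 ratios of 1.67 to 3.46. All 15 remained at least 2-fold higher without the 2 top cells and also without marked cells. Their choice by differences in these same cells favours this.

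Cd200r3 encodes a member of the CD200 receptor family of surface proteins that is known from mast cells and basophils. It ran from 0 over a median of 52.5 to 473 CPM in Hdc-high cells, and from 0 over a median of 0 to 120 CPM in Hdc-low cells. At 10 CPM or more it was found in 36 of 51 Hdc-high and 9 of 41 Hdc-low cells, so the sides overlap. The summed levels were 93.3 CPM (90.9 to 95.7, exact 95% Poisson interval) and 7.58 CPM (6.84 to 8.39), a log2 ratio of 3.46. Both top cells had no Cd200r3 count, and the ratio without them was 3.50. Cd200r1 and Cd200r4, 2 neighbours of Cd200r3 on chromosome 16 chosen after their values were seen, had log2 ratios of 1.38 and 1.47. These genes resemble each other in sequence, and reads of one may have been counted for another.

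Gpr174, a G protein-coupled receptor for lysophosphatidylserine, ran from 0 over 58.6 to 257 CPM in Hdc-high cells. In Hdc-low cells it ran from 0 over 0.417 to 88.7 CPM. It reached 10 CPM in 32 Hdc-high and 9 Hdc-low cells, with a log2 ratio of 2.65. C3ar1, the receptor of the complement fragment C3a, reached 10 CPM in 24 and 6 cells, with sums of 45.6 and 6.52 CPM and a log2 ratio of 2.63. Tnfsf4, the ligand of the costimulatory receptor OX40, reached 10 CPM in 18 and 5 cells, with sums of 34.3 and 8.39 CPM.

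Furin encodes a protease that cleaves precursors of secreted and surface proteins. It ran from 0 over 72.2 to 3062 CPM in Hdc-high cells and from 0 over 20.7 to 1260 CPM in Hdc-low cells. The log2 ratio was 2.50, and 1.83 without marked cells. An antisense gene overlaps the start of Furin, and reads of the 2 genes cannot be told apart if the counting ignored strand. Slc26a9, an anion transporter, had medians of 39.1 and 1.06 CPM, and Plin3, a lipid droplet protein, medians of 33.5 and 0.410 CPM. Ikzf2, the transcription factor Helios, had sums of 54.3 and 16.4 CPM.

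**Figure D4:**
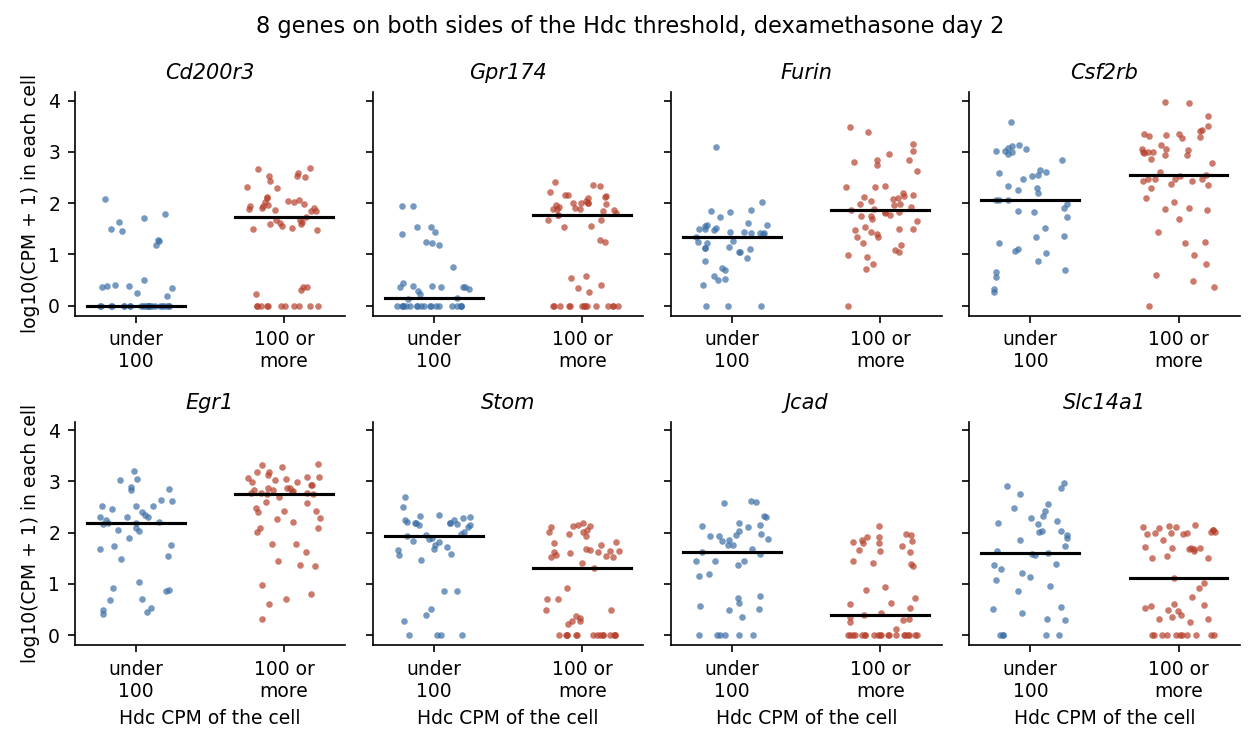
CPM of 8 genes in each cell of the dexamethasone day 2 plate, as log10 of CPM plus 1, for the 41 Hdc-low cells (blue) and the 51 Hdc-high cells (red); black bars are medians. Cd200r3 and Gpr174 go from mostly absent to mostly present, Stom and Jcad have lower medians in Hdc-high cells, and all 8 genes overlap between the sides.

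Cytokine and growth factor receptors had the highest median outside the lineage lists. Of 25 such genes, 15 were described, 13 were higher in Hdc-high cells and 5 at least 2-fold higher. The median log2 ratio was 0.72, against -0.02 over all 8254 genes, of which 48.2% were higher. It was 0.70 without the top 2 cells and 0.69 without marked cells, and 3 genes were at least 2-fold higher in each of these comparisons.

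Csf2rb ran from 0 over 353 to 9322 CPM in Hdc-high cells and from 0.825 over 117 to 3757 CPM in Hdc-low cells. Its log2 ratio was 1.65, and 1.17 without marked cells. Csf2rb2, the mouse beta chain used by IL-3 alone, had medians of 29.2 and 0.364 CPM and a log2 ratio of 3.58, or 2.91 without the top 2 cells. Csf2rb (chr15:78325752-78353847) and Csf2rb2 (chr15:78282507-78305721) are near-identical neighbours, and the counting could have split their reads. Il9r, the interleukin 9 receptor and a name chosen after its values were seen, reached 10 CPM in 22 Hdc-high and 11 Hdc-low cells, with a log2 ratio of 1.44.

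Genes whose level followed Hdc most closely over the 92 cells were Furin, B2m, Cd200r3, Vim and Lgals1, with Spearman's rho of 0.56, 0.56, 0.56, 0.54 and 0.50. The measure describes cells of 1 plate that share its library preparation, and no p is given. Vim encodes vimentin, an intermediate filament protein lost during red cell maturation. It ran from 2.80 over 468 to 3482 CPM in Hdc-high cells and from 0 over 42.8 to 1248 CPM in Hdc-low cells. B2m, the light chain of MHC class I, had medians of 376 and 238 CPM with a log2 ratio of 0.62. Lgals1, galectin 1, had medians of 346 and 114 CPM.

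At the other end, rho was lowest for Stom, Ache, Tbrg4, Jcad and Ccna2, at -0.48, -0.43, -0.43, -0.42 and -0.42. Ache, the acetylcholinesterase of the red cell surface, reached 10 CPM in 4 Hdc-high and 15 Hdc-low cells. Ccna2, cyclin A2 of S and G2 phase, had medians of 345 and 511 CPM.

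The 15 lowest genes by the same rule were Dnmt3b, Jcad, Zfp606, Slc14a1, Txnrd3, Zufsp, Mus81, Rhd, BC017158, Rgcc, Stom, Tmem242, BC005561, Eral1 and Cep89, with log2 ratios of -2.24 to -1.26. All 15 stayed at least 2-fold lower without the top 2 cells, and 14 did without marked cells. The exception was Slc14a1, which went from -1.72 to -0.85. It encodes a urea transporter that carries the Kidd blood group. As for the 15 highest, the choice of these genes in the same cells favours such persistence.

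Stom, the membrane protein stomatin, ran from 0 over 19.6 to 155 CPM in Hdc-high cells and from 0 over 86.7 to 497 CPM in Hdc-low cells. It was above 10 CPM in 26 of 51 and 32 of 41 cells, with a log2 ratio of -1.36. Rhd, of the Rh blood group, had medians of 14.6 and 53.3 CPM and a log2 ratio of -1.51. Dnmt3b, a DNA methyltransferase active in early cells, reached 10 CPM in 7 Hdc-high and 18 Hdc-low cells, and 29.9% of its Hdc-high counts came from 1 cell. All megakaryocyte-marked cells and all cells with at least 3 neutrophil and monocyte markers were among the cells that reached 10 CPM. Jcad, a junction protein, had medians of 1.43 and 41.01 CPM.

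The lists of erythroid genes had medians close to 0. Of 24 described heme synthesis and iron genes, 5 were higher in Hdc-high cells, 1 was at least 2-fold lower, and the median log2 ratio was -0.12 (-0.24 without marked cells). With the threshold at 50 CPM of Hdc, 17 of the 24 were higher and the median was 0.09, so the direction of this list depended on the threshold. At 100 CPM its lowest values were those of Slc40a1, the iron exporter ferroportin, at -1.08 and Alad, of heme synthesis, at -0.78. Alad had medians of 88.2 and 169 CPM. Of 26 genes of the red cell membrane and of late erythroid cells, 8 were higher and 2 at least 2-fold lower, with a median of -0.06 and -0.16 without marked cells. The 2 were Aqp1, the water channel of the red cell, at -1.96 and Rhd. Of 22 erythroid transcription factors and regulators, 10 were higher and 0 passed 2-fold in either direction, with a median of -0.06. Cbfa2t3, a corepressor that binds with GATA and TAL1 factors, was the highest at 0.87. Without marked cells 12 of the 22 were higher, 1 by at least 2-fold, 1 was at least 2-fold lower and the median was 0.04.

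The lists of early genes and of signalling genes had modest positive medians at 100 CPM of Hdc. Of 17 early progenitor genes, 11 were higher, with a median log2 ratio of 0.17. With the threshold at 50 CPM of Hdc, 9 were higher and the median was 0.003, so the size of this shift depended on the threshold. At 100 CPM Gata2, a transcription factor of progenitors and mast cells, had medians of 94.1 and 53.2 CPM and a log2 ratio of 0.56. Meis1, also a progenitor transcription factor, was the lowest at -2.47, and at -1.69 without marked cells. Of 13 immediate early and heat shock genes, 8 were higher, 4 by at least 2-fold, and 1, Jun, was at least 2-fold lower. Without the top 2 cells, and also without marked cells, 2 were at least 2-fold higher, Egr1 and Nr4a1. Egr1, a transcription factor induced by growth signals, ran from 1.06 over 579 to 2157 CPM in Hdc-high cells and from 1.55 over 153 to 1566 CPM in Hdc-low cells. Its log2 ratio was 1.48. Nab2, among the 15 highest, encodes a corepressor of Egr proteins and had medians of 11.02 and 0.661 CPM. Nr4a1, an immediate early nuclear receptor, reached 10 CPM in 15 Hdc-high and 4 Hdc-low cells.

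Of 19 glycolysis and hypoxia genes, 16 were higher in Hdc-high cells and 0 passed 2-fold, with a median of 0.17. Slc2a3, a glucose transporter, had medians of 864 and 228 CPM and a log2 ratio of 0.84. Of 16 p53 target genes, 15 were higher with a median of 0.25, which was 0.11 with 12 higher without marked cells. Eda2r, a death receptor family member, was the 1 past 2-fold at 1.18. Of 17 glucocorticoid receptor targets, 8 were higher and the median was -0.02. Dusp1, Errfi1 and Il1rl1 of that list were at least 2-fold higher. Without the top 2 cells 0 of these targets passed 2-fold and Errfi1 went from 1.28 to -0.27. Fkbp5, an induced chaperone of the receptor complex, had a log2 ratio of -0.33 and Tsc22d3, a further classical target, -0.29.

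Cell cycle genes differed little. Of 28 S phase genes 9 were higher, with a median of -0.11, and of 27 G2 and M phase genes 15 were higher, with a median of 0.03. In both lists 0 genes passed 2-fold. The medians were -0.10 for 25 MYC and ribosome biogenesis genes, -0.07 for 22 cholesterol synthesis genes, 0.05 for 16 amino acid and integrated stress genes, 0.06 for 14 erythropoietin and STAT5 targets, 0.06 for 3 globin genes, 0.12 for 5 interferon response genes and -0.02 for 8 mitochondrially encoded genes.

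**Figure D5:**
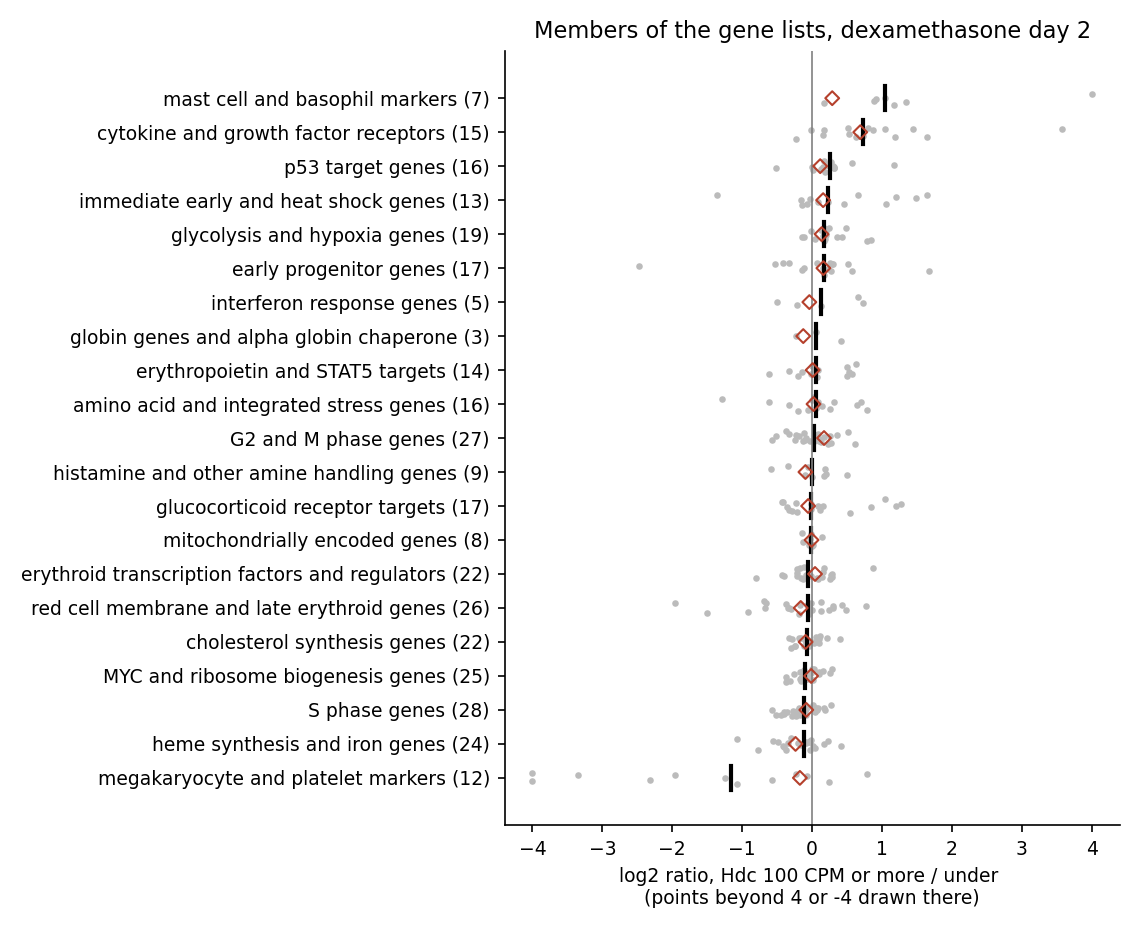
Log2 ratios of Hdc-high over Hdc-low for the described members of each list with at least 3 of them (grey points, number in brackets), with the list's median (black bar) and its median without marked cells (red diamond). The diamond and the bar lie farthest apart in the megakaryocyte list, at -0.18 and -1.16, followed by the mast cell list.

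Other genes that make or handle histamine and related amines did not follow Hdc as a group. Of 17 such genes 9 were described, 4 of them higher and 0 past 2-fold, with a median log2 ratio of 0.00. Slc18a2, the transporter that loads histamine into granules, had a log2 ratio of 0.17 with all cells and -0.99 without the top 2 cells, which held 938 and 654 CPM. Its medians were 2.45 CPM in Hdc-high and 22.1 CPM in Hdc-low cells. Hnmt, the enzyme that degrades histamine by methylation, was at 0.0485 and 0.943 CPM, and Ddc, a decarboxylase of other amines, at 5.81 and 3.05 CPM, both under the level filter.

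Of 22 mast cell and basophil markers 7 were described, all 7 higher and 4 past 2-fold, with a median log2 ratio of 1.04. Without the top 2 cells 4 of 7 were higher, 1 (Srgn) was past 2-fold, 1 was at least 2-fold lower (Fcer1g, a signalling chain of Fc receptors, from 1.16 to -1.11) and the median was 0.81. Without marked cells the median was 0.29, and it was 0.76 when the 1 Hdc-low cell with 2 megakaryocyte markers was left out too. Cpa3 went from 6.92 to 0.84 without the top 2 cells, and its median was 0 on both sides. Srgn kept more of its difference. It ran from 41.7 over 311 to 4018 CPM in Hdc-high cells and from 0 over 176 to 429 CPM in Hdc-low cells, with a log2 ratio of 1.34, and 1.04 without the top 2 cells. Il1rl1, the receptor of interleukin 33 and a member of this list and of the glucocorticoid targets, had medians of 149 and 43.2 CPM and log2 ratios of 1.04 and 0.81. The summed list ran from 88.2 over a median of 600 to 1710 CPM in Hdc-high cells without the top 2 and from 13.2 over 387 to 1200 CPM in Hdc-low cells. The part of mast cell markers in the other differences was not tested.

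Of 18 megakaryocyte and platelet markers 12 were described, 2 higher and 7 at least 2-fold lower, with a median of -1.16. Without marked cells, a choice that itself used 5 of these markers, 5 of 12 were higher, 0 were at least 2-fold lower and the median was -0.18. The sign of this median rested on few cells. Leaving out only the 5 megakaryocyte-marked cells gave 7 of 12 higher and a median of 0.36, and leaving out all marked cells together with the Hdc-low cell that had 2 of the 5 markers gave 8 of 12 higher and a median of 0.31. Pf4, platelet factor 4, was at 0.566 CPM in the Hdc-high and 243 CPM in the Hdc-low sum, with a highest Hdc-low cell of 6298 CPM. Its medians were 0 and 0.677 CPM. Plek, pleckstrin, went the other way with medians of 498 and 183 CPM, and log2 ratios of 0.79 with all cells and 1.41 without marked cells. Itga2b, which encodes the CD41 used for depletion before culture, had medians of 97.8 and 46.4 CPM. Its log2 ratio was -0.57 with all cells and 0.90 without marked cells.

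The remaining lineage lists were close to empty in most cells. Macrophage and lymphoid lists had no described member, with medians of summed CPM between 0 and 0.930. The 2 cells of highest Hdc had lymphoid sums of 269 and 225 CPM, against at most 206 CPM in any other cell. The highest macrophage sums were 251 CPM in Hdc-high and 206 CPM in Hdc-low cells. For the hepatocyte list they were 1203 and 586 CPM. Mpo was the only described neutrophil and monocyte marker, at 1.07 with all cells and -0.52 without marked cells. Apoa1, an apolipoprotein, was the only described hepatocyte marker, with sums of 93.5 and 23.6 CPM and 24 and 13 cells at 10 CPM or more. Alb, Ambp, Serpina1a and Ttr, which define hepatocytes, had no count in any cell.

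The levels of these genes on all 6 plates are given as a description. The genes were chosen by their level and difference on dexamethasone day 2, which favours a high level there for the 15 highest, so no count of genes that peak on this plate is read. Cd200r3 stood at 55.05 CPM there, and at 0.669, 0.512 and 0.0686 CPM on the control plates and 0.164 and 4.07 CPM on dexamethasone days 1 and 3. Furin stood at 149 CPM there and between 11.3 and 30.4 CPM on the other 5 plates. Vim stood at 445 CPM there and between 35.7 and 146 CPM elsewhere. Stom stood at 66.8 CPM there and from 80.1 to 424 CPM elsewhere. Csf2rb did not follow this order closely, with 706 CPM there and 694 CPM on control day 3.

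The dexamethasone day 3 plate was divided at the same 100 CPM, into 10 Hdc-high and 84 Hdc-low cells. Of 7859 genes described on both plates, 204 (2.6%) were at least 2-fold higher and 477 (6.07%) at least 2-fold lower, and 48% were higher and 52% lower in sign. Of the 15 highest genes of day 2, 8 were described there, 4 were higher and 1 was so by at least 2-fold (Tnfsf4, 1.90). Of the 15 lowest, 14 were described, 8 were lower and 4 by at least 2-fold. Stom was at 70.6 CPM in the 10 and 160 CPM in the 84 cells, Rhd at 150 and 348 CPM, and Slc14a1 at 58.6 and 120 CPM. Csf2rb2 was at 104 and 39.3 CPM. Cd200r3, under the level filter on that plate, was at 22.4 and 1.51 CPM, with medians of 0 in both. Egr1 went the other way, at 19.3 and 36.3 CPM, and so did Gata2 at 17.9 and 44.4 CPM. The shares of named genes with the same sign on day 3 were thus near those of all genes. Some lists near 0 on day 2 were lower in these 10 cells, against a day 3 median of -0.02 for all genes. The membrane and late red cell list had 2 of 26 genes higher (median -0.50), the heme and iron list 3 of 24 (-0.34). S phase had 1 of 28 higher (-0.54), and G2 and M phase 4 of 27 (-0.47). The p53 targets (0.40) and MYC list (0.15) had positive medians. Whether the lower Stom, Rhd and Slc14a1 belong to this wider shift was not tested.

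A test over plates needs several plates with cells on both sides. At 100 CPM only dexamethasone day 3 had at least 5 such cells, so the plates were divided at 50 CPM, which gave 7 against 87 cells on control day 1, 11 against 83 on dexamethasone day 1 and 26 against 68 on dexamethasone day 3. For this fit the Hdc-high side means cells at 50 CPM or more of Hdc and the Hdc-low side cells under 50 CPM. The counts were summed per side and tested in edgeR with plate as a block and 2 residual degrees of freedom. Of 15441 genes 0 passed an adjusted p of 0.05 (0% higher and 0% lower), and 607 had an unadjusted p under 0.05, of which 192 were higher. DESeq2, which gave an adjusted p to 14845 of 26793 genes with a count, called 152, of which 67 were higher. All 7 control day 1 cells at 50 CPM or more of Hdc carried at least 3 neutrophil and monocyte markers, and their part in the result was not tested. A fit without such cells lost the control day 1 plate and rested on 2 plates, so its 0 calls say nothing of it.

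In that fit 10 of the 15 highest genes of day 2 had a positive and 11 of the 15 lowest a negative log2 fold change, against 37.4% positive and 62.6% negative among all 15441 genes. An unadjusted p under 0.05 in the same direction was found for Cd200r3, Ikzf2 and Stom. Cd200r3 had 9.50, 1.42 and 10.9 CPM on the Hdc-high side of control day 1, dexamethasone day 1 and dexamethasone day 3, and 0.0243, 0 and 1.14 CPM on the other side. Its log2 fold change was 6.63 (SE 1.89, adjusted p = 0.955 by edgeR), with the Hdc-high side above on 3 of 3 plates. Stom had 74.2, 44.3 and 108 CPM on the Hdc-high side against 117, 84.8 and 167 CPM, a log2 fold change of -0.75 (SE 0.15, adjusted p = 0.955 by edgeR) that was lower on 3 of 3 plates. Ikzf2 had 173, 25.1 and 10.2 CPM against 13.8, 7.73 and 6.81 CPM, a log2 fold change of 1.95 (SE 0.68, adjusted p = 0.955 by edgeR). DESeq2 called Cd200r3 and Stom (adjusted p of 0.000134 and 0.0361).

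The smallest p of the fit belonged to Cpa3, with 359, 130 and 2.42 CPM on the Hdc-high side against 2.36, 0.713 and 0 CPM (log2 fold change 7.46, SE 0.39, adjusted p = 0.323 by edgeR). It was higher on the Hdc-high side of 3 of 3 plates. Thbs1, a platelet and matrix protein, had 0.333, 0.447 and 0.199 CPM against 177, 57.4 and 84.1 CPM (log2 fold change -8.18, SE 0.52, adjusted p = 0.372 by edgeR). Pf4 had 1.00, 0 and 0 CPM against 61.1, 35.8 and 7.71 CPM. Both genes were higher on the Hdc-low side of 3 of 3 plates.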

How the data were processed

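Deposited values were whole-number counts per gene and well, which per the submitters' processing notes rest on STAR 2.4, featureCounts and mouse build GRCm38; how strand and multiply placed reads were handled is not given in the sources used. No molecular identifiers are stated, so reads and not molecules were counted, and intervals cover counting error only. Of 576 value columns 575 matched a labelled well, and 1 was not used. Kept cells held 66140 to 3757116 counts (median 1092431), which sets the precision of each value.

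CPM, log2 ratios of summed CPM with a pseudocount of 1 CPM, exact Poisson and Clopper-Pearson intervals at 95% confidence, and Spearman's rho were computed with Python 3.11.15, numpy 2.4.6, pandas 2.3.3 and scipy 1.17.1. No doublet caller was run. Cells of a plate are no replicates, so day 2 has no test. A planned test of the other 5 plates at 100 CPM had 1 usable plate, and a division at 50 CPM with at least 5 cells per side is reported in its place. It used edgeR 4.0.16 (TMM, filterByExpr, quasi-likelihood test, Benjamini-Hochberg adjustment), with DESeq2 1.42.0 and limma 3.58.1 as alternatives. Its p-values rest on how much the difference between the sides varied from plate to plate, since the block removes the plates' own levels. The plates differ in day and treatment, so technical and biological parts of this variation cannot be told apart. Tested on simulated data, with 200 genes changed 4-fold, the fit recovered 100% with 12 false calls among 16941 genes. The simulation gave all genes the same fixed spread and all plates the same relative means. Only genes with a mean level of at least 50 CPM were changed. The recovery therefore does not show how many real differences between the sides the fit would find.

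Genes named are the 15 highest and 15 lowest log2 ratios without dominance of 1 cell, up to 2 highest and 2 lowest members of each of 25 lists, the 5 highest and 5 lowest rho, and defining lineage markers; other members of those lists are named where a count refers to them. Names outside the rule are marked, and Epor, Tfrc, Plek, Itga2b, Gzmb, Thbs1, Il1rl1, Hnmt, Ddc, Fkbp5 and Tsc22d3 are list members singled out after their values were seen. Members and lists were chosen with earlier results of these data known. One gene of 2 lists is not reported here and was left out of them and of the marking of cells. Alternatives are in the closing section.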

Additional observations from a re-analysis of the deposited data

How the results depend on the processing

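At 50 CPM of Hdc, 271 genes were at least 2-fold higher on day 2, and without cells between 50 and 200 CPM 317 were higher and 229 lower. A pseudocount of 5 CPM gave 108 higher and 76 lower, no filter on low values 1033 and 906, and the ratio of the medians over cells 756 and 515. Mean CPM of cells, TMM, thinning to 300000 counts, a threshold of 200 CPM and leaving out the 2 cells of highest Hdc or cells marked for other lineages kept both counts within 1.5 times. For 36 genes followed under these settings 329 of 468 values moved beyond their counting interval, and 0 changed sign. These genes were chosen by their differences in the same cells, which favours an unchanged sign. Other genes did change sign, such as Errfi1, Slc18a2, Mpo and Itga2b. Medians of some lists near 0 changed sign as well. At 50 CPM of Hdc the median was 0.09 for heme synthesis and iron genes, 0.08 for glucocorticoid receptor targets and -0.07 for G2 and M phase genes. Cells at or above 50 and 200 CPM made up 70.7% and 44.6% of dexamethasone day 2 and 27.7% and 4.26% of dexamethasone day 3, and 50 CPM gave 11.7% on dexamethasone day 1. Between plates DESeq2 called 152 genes, and every other setting run, each plate left out included, called 0. Leaving out a plate gave Cd200r3 log2 fold changes from 5.14 to 8.67 and Stom from -0.81 to -0.66. The fits at 100 and 200 CPM could not be run for lack of cells. The cause of these shifts was not tested. The 2 cells of highest Hdc, the megakaryocyte-marked cells (at 3 or 2 of 5 markers) and the medians over cells were alternatives chosen after seeing the data. No paired analysis was possible because the replicate numbers in the labels only name wells of a plate; the fit between plates pairs the sides of a plate by its block instead, and called 0 genes without that block too. Depth limits genes near 10 CPM most, where 1 cell can carry much of a side's sum.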
